A study of Mus musculus with 6 samples.

Results

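The *Pcgf1*, *Pcgf3*, *Pcgf5*, *Bcor*, *Bcorl1*, *Kdm2b*, *Usp7*, *Auts2*, *Fbrs* and *Fbrsl1* genes encode subunits of the variant Polycomb repressive complexes PRC1.1, PRC1.3 and PRC1.5. Of these 10 genes, taken by name as partners of RYBP and YAF2, 9 have an entry among the 20633 transcript entries of the deposited table, and no entry could be matched to *Auts2*. A symbol could not be given to 73 entries, and whether *Auts2* is one of them was not settled. The nuclear RNA came from mouse embryonic stem cells of the genotype Rybp fl/fl;Yaf2-/-. The UNT group has 3 libraries of cells left without drug, and the OHT group has 3 libraries of cells kept in 4-hydroxytamoxifen, at 800 nM, over 96 hr. In every library *Yaf2* had been removed beforehand by CRISPR/Cas9, in a line grown from an isolated colony. The line also carries floxed *Rybp* and a tamoxifen-inducible Cre recombinase. *Rybp* is intact in the UNT group, and OHT leads to its deletion in the OHT group. OHT-treated cells without floxed *Rybp* were not among the groups.

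PRC1 complexes are E3 ubiquitin ligases that place a single ubiquitin on lysine 119 of histone H2A, and are best known in embryonic stem cells for holding developmental genes in a repressed state. Each complex is built on a dimer of RING1A or RING1B with a PCGF protein, and the PCGF protein decides which partners join. RYBP or its paralogue YAF2 is held in all variant complexes, where it stimulates the ligase. PCGF1 defines PRC1.1, with the scaffold BCOR or BCORL1, the CpG-binding protein KDM2B, and the deubiquitylase USP7. PCGF3 and PCGF5 define PRC1.3 and PRC1.5, which hold the related proteins AUTS2, FBRS and FBRSL1 together with casein kinase 2.

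The value analysed here is the base mean, the normalized read count of an entry averaged by the authors over all libraries, UNT and OHT together. The base mean thus joins UNT cells with *Rybp* and OHT cells in which *Rybp* is deleted. It gives the level of each gene in these cells and holds no difference between UNT and OHT. Values per library were not analysed here, so no SD or library depth can be given, and whether neighbouring genes in an order of levels differ beyond the spread between libraries was not tested. Because a longer gene collects more reads, levels of different genes were compared as base mean per kb of gene span, from transcription start to end with introns, and also per kb of exon. Spans were those of the annotated transcript matched to each entry, and the intervals over which the authors counted were not available here. In a bulk preparation, fewer cells expressing a gene and less RNA per cell cannot be told apart.

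The cells carried the markers of embryonic stem cells. Of 10 such markers 8 have an entry, and their levels lay between 66.1 per kb of span for *Esrrb* and 2181 for *Tdgf1*, all at or over percentile 80.1 of all entries. *Dppa5a* and *Fbxo15* had no entry. The 7 fibroblast or feeder markers had a median of 2.41 per kb, ranging from 0.0450 for *Postn* to 22.0 for *Col1a1*. Of these 7, *Col1a1* and *Thy1* were over the median of all entries, at percentiles 57.4 and 56.9. The summed base mean of the 7, not scaled by length, was 736.7 against 42281 for the embryonic stem cell markers. The markers of extraembryonic endoderm had a median of 4.00 per kb, those of mesoderm 1.04 and those of neuroectoderm 9.47, the last with *Nes* at 82.0. None of the markers with an entry was at 0.

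KDM2B recognises CpG dinucleotides that carry no methylation through its CxxC zinc finger, and PRC1.1 is known for binding CpG islands. The CpG content of the members' own promoters was therefore read first, in windows of 300 bases (250 before an annotated start and 50 from it) of GRCm38.p6 from RefSeq. The search was for the letters CG, which read the same on both strands, and 94.57% of the 32851 promoters of this length held at least 1. Windows were found for 8 members, 15 windows in all, and none for *Pcgf1* or *Auts2*. Over all promoters the median was 7 CpG, with quartiles of 3 and 20, and 12 of the 15 member windows held more than 20. Windows of nearby starts of 1 gene overlap and share bases.

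The sequences below show the highest and the lowest CpG count among the members, and the pairs of distant starts in *Kdm2b* and *Pcgf5*, printed 5′ to 3′ on the gene's strand with each CpG in capitals. *Usp7* (chr16:8738293-8738592, minus strand) had 63 CpG, a count reached by 0.0304% of all promoters. The outer *Kdm2b* start (chr5:122989050-122989349, minus strand) had 28 and the internal start (chr5:122900301-122900600, minus strand) had 49. A second outer *Kdm2b* start, 592 bp from the first, had 18. *Pcgf5* had 34 at its outermost start (chr19:36348079-36348378, plus strand) and 5 at the start of the entry counted here (chr19:36378817-36379116, plus strand).
Usp7: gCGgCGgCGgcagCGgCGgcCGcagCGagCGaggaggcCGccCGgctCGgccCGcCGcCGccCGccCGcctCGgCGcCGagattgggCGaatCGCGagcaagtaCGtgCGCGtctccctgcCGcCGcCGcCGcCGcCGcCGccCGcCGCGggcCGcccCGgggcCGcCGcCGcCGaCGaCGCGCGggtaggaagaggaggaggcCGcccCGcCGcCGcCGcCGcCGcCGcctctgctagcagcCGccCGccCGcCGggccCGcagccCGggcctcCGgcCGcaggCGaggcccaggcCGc
Kdm2b outer start: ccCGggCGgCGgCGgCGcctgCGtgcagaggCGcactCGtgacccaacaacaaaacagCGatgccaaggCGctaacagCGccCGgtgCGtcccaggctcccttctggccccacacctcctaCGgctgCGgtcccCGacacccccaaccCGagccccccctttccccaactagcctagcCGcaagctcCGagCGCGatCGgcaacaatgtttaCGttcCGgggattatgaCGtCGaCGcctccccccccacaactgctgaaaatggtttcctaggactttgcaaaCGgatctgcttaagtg
Kdm2b internal start: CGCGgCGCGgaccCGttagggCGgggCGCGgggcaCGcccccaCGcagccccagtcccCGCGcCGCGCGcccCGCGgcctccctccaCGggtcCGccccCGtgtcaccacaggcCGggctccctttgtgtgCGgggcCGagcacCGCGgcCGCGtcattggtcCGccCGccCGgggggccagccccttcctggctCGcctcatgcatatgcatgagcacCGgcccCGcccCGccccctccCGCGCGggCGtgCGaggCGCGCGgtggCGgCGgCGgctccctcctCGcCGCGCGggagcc
Pcgf5 outermost start: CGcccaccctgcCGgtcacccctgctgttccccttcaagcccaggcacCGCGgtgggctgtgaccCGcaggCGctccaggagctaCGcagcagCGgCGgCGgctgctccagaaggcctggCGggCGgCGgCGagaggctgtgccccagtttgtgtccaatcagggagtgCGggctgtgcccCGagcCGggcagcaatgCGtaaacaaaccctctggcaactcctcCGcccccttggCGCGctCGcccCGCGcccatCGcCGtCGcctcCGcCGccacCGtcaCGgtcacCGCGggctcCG
Pcgf5 start of the counted entry: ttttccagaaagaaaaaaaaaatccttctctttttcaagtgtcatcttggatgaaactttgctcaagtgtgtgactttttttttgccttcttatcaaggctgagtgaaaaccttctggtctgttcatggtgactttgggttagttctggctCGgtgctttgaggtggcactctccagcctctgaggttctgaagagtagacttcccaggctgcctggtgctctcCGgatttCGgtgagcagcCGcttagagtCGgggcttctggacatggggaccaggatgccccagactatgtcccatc

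The *Pcgf5* window at the start of the counted entry has a GC content of 48.3%, below the median of 52.67% over all promoters, and 62.0% of all promoters hold at least as many CpG. A further *Pcgf5* start, 30680 bp downstream of the counted one, had 35 CpG. The internal *Kdm2b* window reached 81.7% GC, and 1.02% of all promoters hold as many CpG. The remaining members had 23 CpG for *Pcgf3*, 26 and 27 for the *Fbrsl1* starts, 21 for *Bcorl1*, 21 for both *Bcor* starts and 19 for *Fbrs*. The *Bcor* starts lie 0 and 9 bp from the start of its noncoding entry, and whether coding transcripts use them was not examined. The *Fbrs* start lies 6263 bp from that of the counted entry. These counts describe letters in the reference sequence, and neither methylation nor binding was measured in these libraries.

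**Figure D1:**
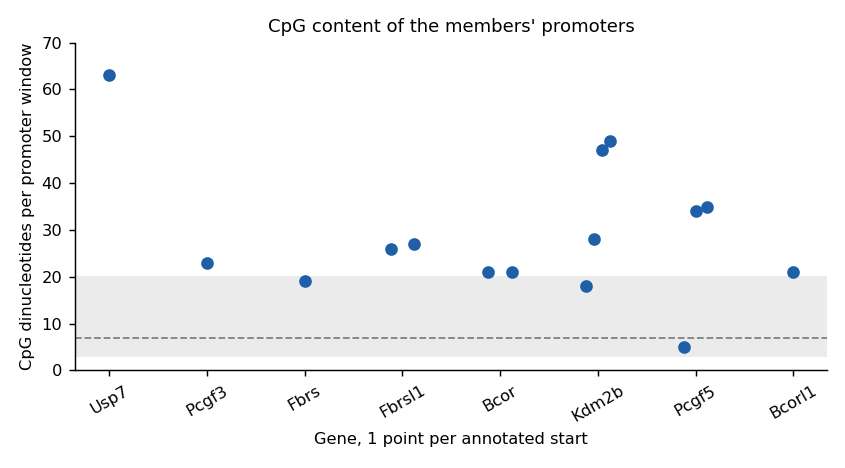
CpG dinucleotides in 300-base promoter windows (y axis) of the 8 members with a window (x axis, ordered by level per kb of span), with 1 point per annotated start, the grey band marking the quartiles of all promoters (3 to 20) and the dashed line their median of 7. *Usp7* stands highest at 63, and *Pcgf5* has starts at 5, 34 and 35.

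*Usp7* had the highest level of the members on every scale, and *Bcorl1* the lowest per kb of span and per kb of exon. Over the 9 members the level per kb of span ran from 3.48 to 227.4, a 65.3-fold range, with a median of 36.9 at percentile 68.1 of all entries with a span. By comparison, the median of all 18871 such entries was 14.0 per kb, with quartiles of 1.38 and 51.6. Of the 9 members, 8 lay over the median of all entries per kb of span, 7 per kb of exon and 6 by the base mean itself. The count was also 6 when entries with a base mean under 10 were left out, and 6 when the level was taken per kb of the whole RefSeq gene, which can be longer than the counted entry. The members between the extremes changed places with the length used.

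USP7 removes ubiquitin from its substrates, p53 and MDM2 among them, and belongs to PRC1.1 together with other complexes. *Usp7* (chromosome 16 of mm10, 8690146 to 8738342, minus strand, 31 exons) had a base mean of 10960, at percentile 98.8 of all entries. Its level was 227.4 per kb of span and 2738 per kb of exon, at percentiles 95.5 and 98.0. Per kb of span it was 4.85 times that of *Pcgf3*, the next member in order, and 6.73 times that of *Bcor*. These ratios were 9.85 and 12.8 per kb of exon, where *Pcgf5* came next in order. Among the other PRC1 genes examined, the nearest levels were *Rybp* at 237.3 per kb above it and *Mga* at 189.2 below it. The *Rybp* value is a mean that includes the OHT cells, in which *Rybp* is deleted.

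**Figure D2:**
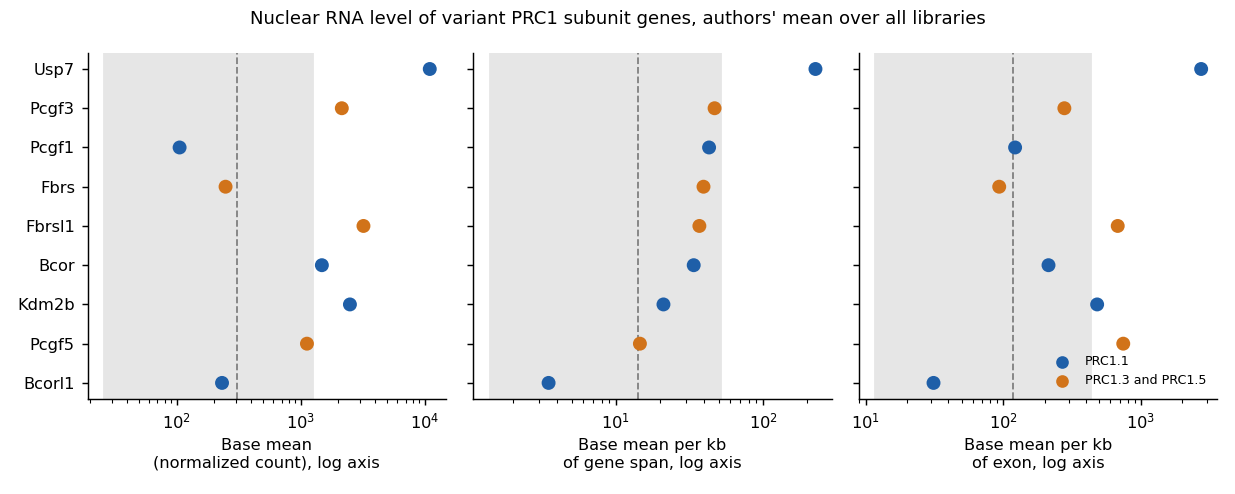
Base mean (left), base mean per kb of gene span (middle) and base mean per kb of exon (right) of the 9 members with an entry, on log axes, each point being the authors' mean over all libraries with no replicate error, and the grey band and dashed line marking the quartiles and median of all entries. *Usp7* lies far right in every panel, while *Pcgf1*, lowest by base mean at 105.6, ranks behind *Usp7* and *Pcgf3* alone per kb of span.

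PCGF1 is the RING-domain protein on which PRC1.1 is built. *Pcgf1* (chromosome 6, 83078390 to 83080847, plus strand, 9 exons) had the lowest base mean of the members, 105.6 at percentile 36.8, and by far the shortest span, 2458 bp. Its level per kb of span was 43.0, below *Usp7* and *Pcgf3* alone among the members, and at percentile 71.3. Per kb of exon it was 122.0, seventh in order and at percentile 50.4. The *Pcgf1* transcript holds 827 different runs of 40 bases, the length of the reads, and 329 of them (39.8%) also occur in the processed pseudogene *Gm8930*. This was the highest share among the members, so reads of *Pcgf1* exons may be the least certain to place. No entry carries the symbol *Gm8930*.

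BCOR and BCORL1 are paralogous scaffolds of PRC1.1 that bind PCGF1. *Bcor* (chromosome X, 12036740 to 12080553, minus strand, 15 exons) had a base mean of 1480 and 33.8 per kb of span, at percentile 66.2. Its level per kb of exon was 213.3, at percentile 60.3. The RefSeq gene of *Bcor* is 123780 bp long against 43814 bp for the counted entry, and over that length its level was 11.96 per kb, at percentile 49.8. *Bcorl1* (chromosome X, 48341358 to 48408049, plus strand, 15 exons) had a base mean of 232.1 and 3.48 per kb, at percentile 32.9. The 2 genes thus differed 9.71-fold per kb of span, 6.84-fold per kb of exon and 6.38-fold by base mean, and 3.44-fold per kb of RefSeq gene, with *Bcor* higher on each scale. Neither transcript shares a stretch of 40 bases with the transcript of any other gene. *Bcorl1* was the 1 member under the median of all entries per kb of span. With entries under a base mean of 10 left out, *Pcgf5* and *Kdm2b* were under it as well, and per kb of RefSeq gene *Pcgf5* and *Bcor* were.

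KDM2B brings PRC1.1 to CpG islands through its zinc finger, and its long form also has a JmjC demethylase domain that the short form lacks. The *Kdm2b* entry with the highest base mean (chromosome 5, 122870665 to 122989099, minus strand, 23 exons) covers the whole gene, with a base mean of 2491. That made 21.0 per kb of span, at percentile 56.7, and 480.9 per kb of exon, at percentile 77.0. *Kdm2a*, its paralogue outside PRC1, had 55.2 per kb of span and 616.5 per kb of exon, so that *Kdm2a* was 2.62 times as high on the first scale and 1.28 times on the second. Of the stretches of 40 bases in the *Kdm2b* transcript 24.3% also occur in another gene, 576 of them in the pseudogene *Gm12397* and 588 in *Rnf34*, whose end overlaps that of *Kdm2b* by 627 bp on the opposite strand.

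PCGF3 and PCGF5 are close relatives that take the place of PCGF1 in PRC1.3 and PRC1.5. *Pcgf3* (chromosome 5, 108461232 to 108506976, plus strand, 11 exons) had a base mean of 2143 and 46.8 per kb of span, second among the members and at percentile 73.1. *Pcgf5* (chromosome 19, 36379068 to 36456204, plus strand, 9 exons) had a base mean of 1122 and 14.5 per kb, at percentile 50.5. Per kb of span *Pcgf3* was 3.22 times as high as *Pcgf5*. Per kb of exon the order turned, with 278.0 for *Pcgf3* and 744.2 for *Pcgf5*, whose span is 98.0% intron. Over its RefSeq gene of 112642 bp *Pcgf5* had 9.96 per kb, at percentile 47.1. Annotated features on the same or the opposite strand overlap *Pcgf5*, the longest by 2166 bp, and none overlaps *Pcgf3*.

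FBRS and FBRSL1, both related to AUTS2, are subunits of PRC1.3 and PRC1.5. *Fbrsl1* (chromosome 5, 110361754 to 110448503, minus strand, 19 exons) had a base mean of 3203 at percentile 89.8, second among the members. *Fbrs* (chromosome 7, 127485221 to 127491513, plus strand, 11 exons) had a base mean of 247.8 at percentile 46.8. Per kb of span the pair lay side by side, at 36.9 for *Fbrsl1* and 39.4 for *Fbrs*, since the *Fbrs* span is 6293 bp and that of *Fbrsl1* 86750 bp. Per kb of exon *Fbrsl1* was 7.26 times as high, at 678.5 against 93.5. The RefSeq gene of *Fbrs* is longer than the counted entry, 13099 bp, and over that length its level was 18.9 per kb, so that *Fbrsl1* was 1.95 times as high on that scale.

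Grouped by complex, the 5 members of PRC1.1 had a median of 33.8 per kb of span, ranging from 3.48 to 227.4. The 4 measured members of PRC1.3 and PRC1.5 had a median of 38.1, ranging from 14.5 to 46.8. The medians per kb of exon lay further apart, at 213.3 and 478.3. The ranges per kb of span overlap, and the PRC1.1 range holds the whole of the other. No sequence stretch of 40 bases was shared between the transcripts of any of the 9 members, so reads within exons could be told apart between the paralogues.

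Whether reads had been counted over introns was examined through pairs of entries of 1 gene in which one lies within the span of the other. In 860 of 895 such pairs (96.1%) the inner entry had no higher base mean than the outer. In the remaining 35 it was the higher, which counting over the whole span alone does not give. There were 19 pairs in which the inner entry had the longer exons, by over 1.2-fold, and yet the shorter span, by over 1.2-fold, and they came from 16 genes. The inner entry was not the higher in 19 of these 19 pairs, the pattern that counting over the whole span gives. The level per kb of span had been set as the main scale beforehand, because nuclear RNA holds introns, and the choice did not rest on these pairs.

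Of the members, *Kdm2b*, *Fbrsl1* and *Bcor* had 2 entries each, which start at different places. The second *Kdm2b* entry runs from the internal start to the same end (122870668 to 122900355) and covers 25.1% of the outer span. Its base mean was 1161, 46.6% of that of the outer entry, or 39.1 per kb. The part of *Kdm2b* before the internal start, taken as the difference of the 2 entries, came to 1330 over 88.7 kb, or 15.0 per kb. The density per kb of span was thus 2.61 times as high from the internal start onwards. Against the whole outer entry, which contains it, the inner entry had 39.1 against 21.0 per kb of span. On that comparison the direction turned per kb of exon, with 328.7 for the inner entry and 480.9 for the outer. The inner entry holds 3532 exon bases and the outer 5180. The part before the internal start was not scaled by exon length, so the ratio of 2.61 is given per kb of span only. Exon length leaves out the introns, over which reads may also have been counted. Reads of both forms fall in the part from the internal start onwards, and the forms cannot be told apart there. The last part also holds the 624 bp overlap with *Rnf34*, which had a base mean of 741, and the part of *Rnf34* reads in the difference was not tested.

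In *Fbrsl1* the inner entry (110362787 to 110387096) had a base mean of 717.9, or 29.5 per kb. The rest of the outer entry came to 39.8 per kb, so the inner entry was 0.742 times as dense as that rest. Most of the rest lies before the internal start, but it also holds the end of the outer entry, from 110361754, beyond the inner entry. The rest was not scaled by exon length. The whole outer *Fbrsl1* entry, which contains the inner, had 36.9 per kb of span. Per kb of exon the inner entry had 265.9 and the whole outer entry 678.5. Against the whole outer entry, *Kdm2b* and *Fbrsl1* thus differed in direction per kb of span. Per kb of exon the inner entry was lower than the whole outer entry in both. The second *Bcor* entry is a noncoding transcript (12131493 to 12160346) that ends 50939 bp before the coding entry starts. Its base mean was 115.2, or 3.99 per kb, and the coding entry was 8.46 times as dense. These differences carry no error, since they are made from means over all libraries.

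**Figure D3:**
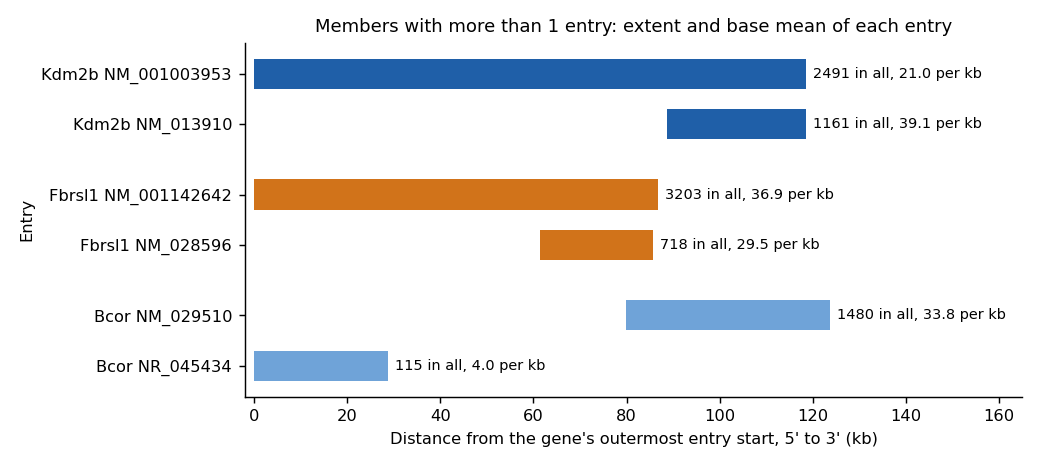
Extent of each entry of *Kdm2b*, *Fbrsl1* and *Bcor*, plotted as distance in kb from the gene's outermost entry start in the direction of transcription, with the base mean and the base mean per kb of span of the entry printed beside each bar. The inner *Kdm2b* entry is denser per kb of span than the outer (39.1 against 21.0), the inner *Fbrsl1* entry is less dense (29.5 against 36.9), and the *Bcor* entries do not overlap. The inner entry is the less dense per kb of exon in both *Kdm2b* and *Fbrsl1*.

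The other PCGF genes are *Pcgf2*, *Bmi1*, which encodes PCGF4, and *Pcgf6*, which defines PRC1.6. PCGF2 and PCGF4 form the canonical complexes and can form variant complexes as well. Set beside these genes, the PCGF genes of PRC1.1, PRC1.3 and PRC1.5 did not lead per kb of span. *Pcgf2* had 140.0 per kb and *Pcgf6* 82.3, followed by *Pcgf3* at 46.8, *Pcgf1* at 43.0, *Pcgf5* at 14.5 and *Bmi1* at 9.10. Of the summed level of these 6 genes per kb of span, *Pcgf3* made up 14.0%, *Pcgf1* 12.8% and *Pcgf5* 4.33%. Per kb of exon *Pcgf5*, whose span is 98.0% intron, led with 30.7%, *Pcgf3* held 11.5% and *Pcgf1* 5.04%. Exon length leaves out the introns, over which reads may also have been counted. *Bmi1* was the lowest of the family on each scale.

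**Figure D4:**
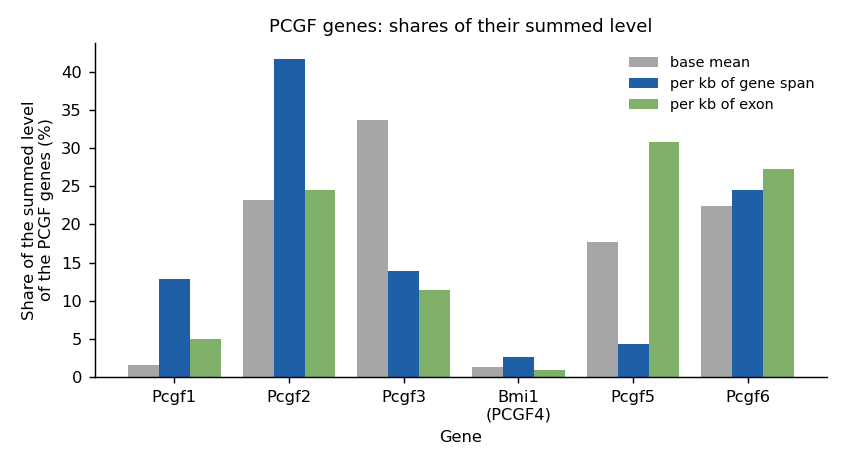
Share of the summed level of the 6 PCGF genes taken by each (y axis, percent), by base mean (grey), per kb of gene span (blue) and per kb of exon (green), from the authors' means over all libraries. *Pcgf5* moves from 4.33% per kb of span to 30.7% per kb of exon, while *Bmi1* stays lowest.

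Among the core genes shared by PRC1 complexes, *Rnf2*, which encodes RING1B, had 79.0 per kb of span, and *Ring1*, which encodes RING1A, had 48.8. *Rnf2* was 1.84 times as high as *Pcgf1* per kb of span, 6.47 times per kb of exon and 23.6 times by base mean. *Rybp* had 237.3 per kb, a mean that joins UNT cells and OHT cells with *Rybp* deleted, so it need not be the level of either group. *Yaf2*, deleted in all libraries, had a base mean of 3.24 and 0.0617 per kb. The further partners of PRC1.1, PRC1.3 and PRC1.5 were all over the median of all entries, 5 of 5, with a median of 125.3 per kb. *Skp1*, the adaptor that binds the F-box of KDM2B, had 308.1 per kb. The casein kinase 2 genes had 94.9 (*Csnk2a1*), 161.2 (*Csnk2a2*) and 125.3 (*Csnk2b*), and *Dcaf7*, a WD40 protein, 70.3.

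The 7 measured genes of canonical PRC1 had a median of 29.7 per kb, ranging from 0.982 for *Cbx8* to 300.7 for *Phc1*. The 9 genes of PRC1.6 had a median of 94.0 per kb, from 35.3 for *E2f6* to 189.2 for *Mga*, and 9 of 9 were over the median of all entries. By median, the members studied here at 36.9 per kb lay between canonical PRC1 and PRC1.6, whereas per kb of exon the members, at a median percentile of 65.5, lay under canonical PRC1 at 69.7. Among the listed genes the nearest levels to *Pcgf3*, *Pcgf1* and *Fbrs* were *Ring1* above at 48.8 and *Cbx2* below at 38.2. The nearest level above *Bcorl1* was that of *Bmi1* at 9.10.

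**Figure D5:**
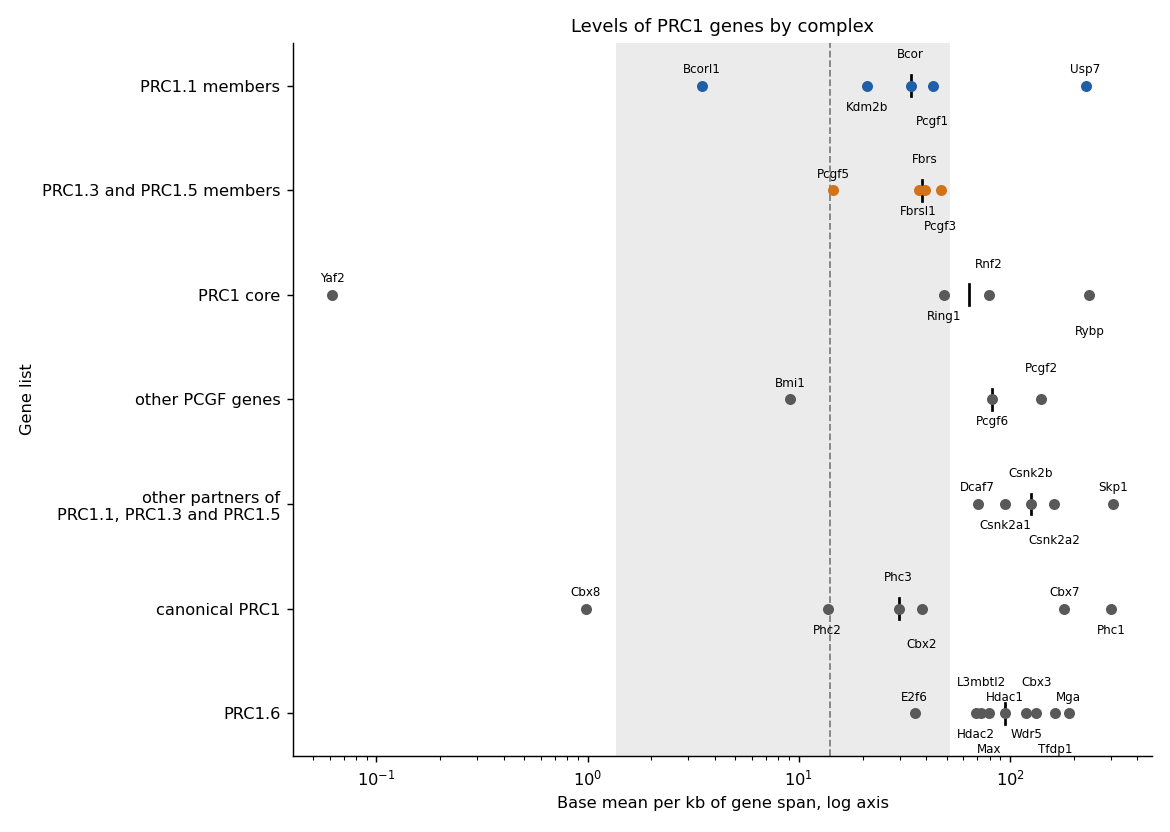
Base mean per kb of gene span (x axis, log) of the members of PRC1.1 (blue) and of PRC1.3 and PRC1.5 (orange) and of other PRC1 genes (grey), with 1 point per gene reported, a black bar at each list's median, and the band and dashed line marking the quartiles and median of all entries. The medians of the member groups, 33.8 and 38.1, lie between those of canonical PRC1 at 29.7 and PRC1.6 at 94.0, an order that does not hold per kb of exon.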

How the data were processed

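Nuclear RNA from 6 libraries, 3 UNT and 3 OHT by their labels, had been depleted of rRNA and prepared with a directional kit. The authors removed rRNA reads with bowtie2, aligned the rest to mm10 with STAR and then bowtie2, and used a custom counting script over RefSeq genes kept for size, mappability and unique ends. Whether strand was used in counting, and tool versions, are not given in the sources used here.

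The base mean is a signal, deposited by the authors as a DESeq2 average of size-corrected counts that joins UNT and OHT. The deposited table also holds the authors' log2 fold changes with their errors, test statistics and p-values for OHT against UNT, and these were not used. No column holds values of a single library, so no test, error or interval was computed, depth per library is unknown, and a level has no counting error attached.

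Gene symbols came from RefSeq (GRCm38.p6) and then GENCODE vM21, which gave a symbol for 20560 of 20633 entries and left 73 without one. Spans and exon lengths came from the GENCODE transcript, the longest where several, paired with the entry's RefSeq identifier (20261 entries). For each gene the entry with the highest base mean was kept. Percentiles were taken over entries with a base mean above 0, 19198 in all and 18871 with a span. Stretches of 40 bases were searched on both strands of 141767 GENCODE transcripts. Python 3.11.15, numpy 2.4.6, pandas 2.3.3 and matplotlib 3.10.9 were used, and the steps were tested on simulated data.

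The members, the lists of other PRC1 genes and the cell type markers were chosen by name with earlier results of these data known. The genes named are the members, the genes of those lists, and genes that overlap a member or share sequence with it. Of the canonical PRC1 list, 1 gene is not reported here by itself and is counted in the list's median. A comparison of protein sequences had been planned and was not run, and protein sequences were not used here. Alternatives were exon length, 1 entry per gene, a base mean of at least 10, no scaling by length and the entry with the lowest base mean. The RefSeq gene span was added after seeing the data.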

Additional observations from a re-analysis of the deposited data

How the results depend on the processing

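No paired analysis was possible because no column carries the values of a single library, and for the same reason no library could be left out. The median percentile of the members, 68.1, was 65.5 with exon length, 67.4 with 1 entry per gene, 61.0 with a base mean of at least 10, 69.3 with the entry of lowest base mean and 59.2 with the RefSeq gene span, which was chosen after seeing the data. Of the 9 members, 3 kept their place in the order with exon length, 1 with no scaling by length, 5 with the entry of lowest base mean and 4 with the RefSeq gene span. *Usp7* was first in all of these orders, and *Bcorl1* last in all but that with no scaling by length, where *Pcgf1* was last. *Pcgf5* moved most, between percentiles 39.6 and 85.1, and *Bcor* fell to 34.2 with its noncoding entry. With exon length, then with a base mean of at least 10, the median percentile was 66.2 and 79.7 for the PRC1 core (78.6 in the report's setting), 81.2 and 80.5 for the other PCGF genes (84.1), 92.2 and 88.3 for the other partners (90.5), 69.7 and 58.7 for canonical PRC1 (63.6), and 88.8 and 83.2 for PRC1.6 (86.3). With exon length the median of the members lay under that of canonical PRC1, and not over it.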
